A study of Rattus norvegicus with 21 samples.

Results

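The antioxidant defence genes described here were 6 rat genes, chosen by Ensembl gene ID: Hmox1 (ENSRNOG00000014117), Nqo1 (ENSRNOG00000012772), Gclc (ENSRNOG00000006302), Cat (ENSRNOG00000008364), Sod1 (ENSRNOG00000002115) and Sod2 (ENSRNOG00000019048). All 6 of 6 IDs were present among the 30560 IDs of both deposited count tables, and all 6 passed the filter on low counts in each. The study measured RNA in neonatal rat ventricular myocytes (NRVMs), heart muscle cells taken from newborn rats and kept in culture, in 20 libraries. Knockdown libraries came in 4 groups of 2: siKlf2 with phenylephrine (PE), siNeg with PE, siKlf2 without PE and siNeg without PE, where siKlf2 is a small interfering RNA against the transcription factor Klf2 and siNeg its negative control. Overexpression libraries came in 4 groups of 3: Ad-Klf2 with PE, Ad-GFP with PE, Ad-Klf2 without PE and Ad-GFP without PE, where the adenovirus carried Klf2 or green fluorescent protein. PE, an α1-adrenergic agonist that makes cultured cardiomyocytes grow, was given at 100 µM for 36 h. Every sample label names the PE treatment, and the labelled time of 0 h or 36 h separates the groups. Small interfering RNA preceded PE by 12 h, whereas virus was added after 12 h with or without PE and left for 24 h. The controls therefore also carried a transfected RNA or a virus, and the study's question was how the KLF2 level bears on PE-induced hypertrophy.

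These genes encode enzymes that remove reactive oxygen species or their products. Superoxide dismutases turn superoxide into hydrogen peroxide, Sod1 in the cytosol with copper and zinc and Sod2 in mitochondria with manganese, and catalase (Cat) breaks hydrogen peroxide down to water and oxygen. Gclc is the catalytic subunit of glutamate-cysteine ligase, the rate-limiting enzyme of glutathione synthesis. Hmox1, haem oxygenase, opens haem to biliverdin, carbon monoxide and iron, and Nqo1 reduces quinones without forming semiquinones. Hmox1, Nqo1 and Gclc are well known targets of the stress-activated factor NRF2, which binds antioxidant response elements in DNA. In human endothelial cells KLF2 is known as a flow-induced factor that favours NRF2 activity, and as a zinc finger protein of the Krüppel-like family it binds CACCC boxes.

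The promoters of Gclc and Nqo1 are shown because both genes were higher with Ad-Klf2, and that of Cat because it was lower with Ad-Klf2 under PE. Sod1 and Sod2 were also called lower there (log2 fold changes -0.43 and -0.12, against -0.29 for Cat), and their sequences are not shown. RefSeq promoter windows on GRCr8 were matched by symbol for 5 of the 6 genes, without Hmox1. Each sequence is the 250 bases before the annotated start, 5′ to 3′ on the gene's strand, with CACCC or its reverse complement GGGTG in capitals. Gclc lies at chr8:87510226-87510475 on the plus strand, Nqo1 at chr19:52220268-52220517 on the minus strand and Cat at chr3:110329527-110329776 on the minus strand.
Gclc: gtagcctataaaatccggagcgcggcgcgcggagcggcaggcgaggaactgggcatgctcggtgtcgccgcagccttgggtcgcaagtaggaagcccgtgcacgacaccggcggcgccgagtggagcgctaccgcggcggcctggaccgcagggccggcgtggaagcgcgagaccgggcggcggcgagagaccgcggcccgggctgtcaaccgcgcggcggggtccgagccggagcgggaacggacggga
Nqo1: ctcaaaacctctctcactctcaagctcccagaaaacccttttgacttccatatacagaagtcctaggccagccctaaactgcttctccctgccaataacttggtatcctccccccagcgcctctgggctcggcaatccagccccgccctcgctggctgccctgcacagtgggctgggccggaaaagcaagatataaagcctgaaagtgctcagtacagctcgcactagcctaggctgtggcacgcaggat
Cat: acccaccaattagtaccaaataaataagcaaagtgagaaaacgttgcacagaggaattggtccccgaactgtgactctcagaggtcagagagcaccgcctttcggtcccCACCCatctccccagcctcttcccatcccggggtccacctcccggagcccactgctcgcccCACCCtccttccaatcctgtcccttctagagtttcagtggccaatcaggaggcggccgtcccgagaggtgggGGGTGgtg
The Cat window held 3 matches, the Sod2 window 1, and the windows of Gclc, Nqo1 and Sod1 had no match. Of 33469 promoter windows in the table, 49.2% held at least 1 match, so a match is common. The core of the antioxidant response element, searched as TGACNNNGC on both strands, was in the Sod2 window and in 10.1% of all windows. It was not in the windows of Nqo1, Gclc, Cat and Sod1. These matches describe the letters in the window only. The deposited KLF2 peaks were on another build, mRatBN7.2, and were not set against these genes.

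Knockdown libraries held 181101876 to 224082309 counts and overexpression libraries 32693762 to 76138723, and the 6 genes together took 0.0872% to 0.193% of a library's counts. The 3 Ad-GFP libraries without PE stood apart. Their log CPM correlated at 0.959 to 0.965 with each other across genes, against at least 0.982 within the other overexpression groups, and 539 to 776 genes had 1 to 5 counts in them, against 1728 to 2022 in the others. They are the whole control group without PE, so comparisons that need it cannot be made without them. These are Ad-Klf2 against Ad-GFP without PE, PE in Ad-GFP, and the difference of the PE response between Ad-Klf2 and Ad-GFP. Levels below are counts scaled to a common library size (CPM) with TMM factors, a scaling that takes most genes as unchanged between libraries. With it, 65.8% of genes were called in Ad-Klf2 against Ad-GFP with PE and 53.9% in siKlf2 against siNeg without PE. Whether the premise holds here was not tested. Scaling by library totals alone moved the log2 fold changes of all genes in the 8 pairwise comparisons by -0.265 to -0.038, the most in siKlf2 against siNeg with PE, so changes of that size depend on the scaling. In such bulk samples, fewer cells of a type and less RNA per cell cannot be told apart. By the RefSeq annotation on GRCr8, Hmox1 overlaps a long noncoding RNA and Cat a pseudogene, and their reads cannot be assigned with certainty. The IDs had no symbols in the reference used here. The level of Klf2 and the markers of myocytes and other cell types were therefore not checked.

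**Figure D1:**
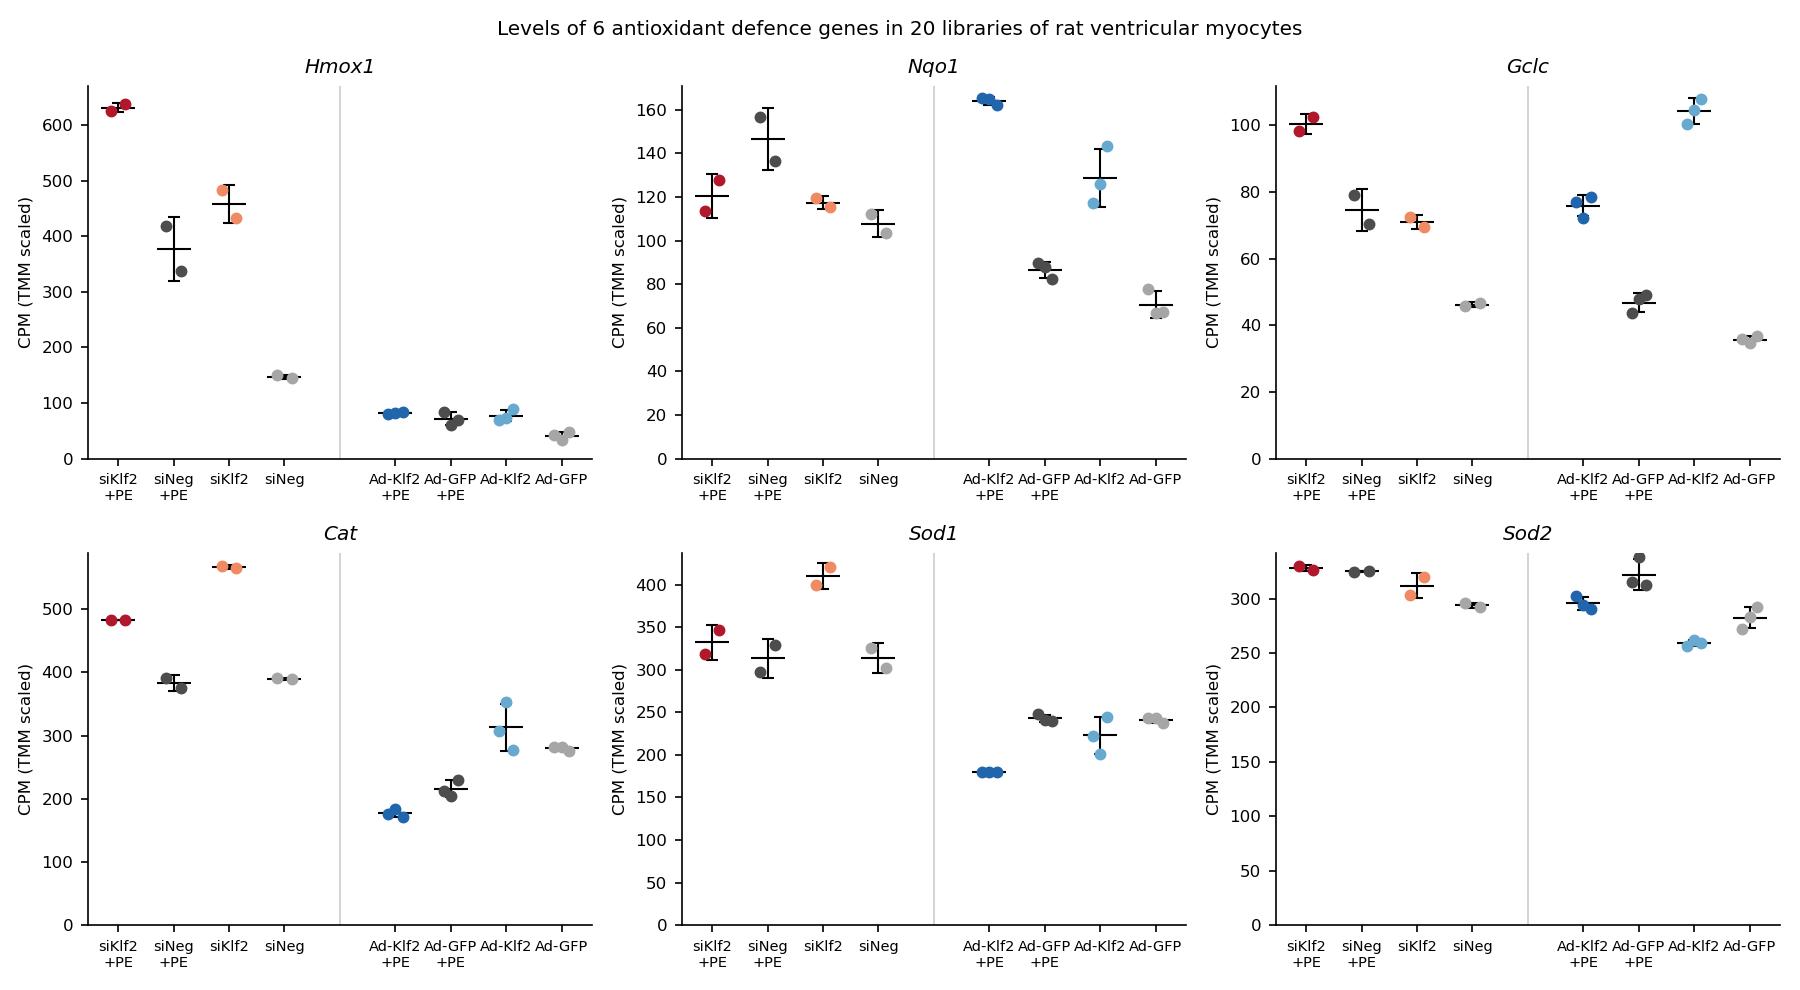
Level of each gene in CPM with TMM scaling, on a linear axis starting at 0, in 8 groups, with 1 point per library and the mean and SD as bars. The knockdown table is left of the line and the overexpression table right of it, each scaled on its own; Hmox1 spans 145.0 to 638 CPM on the left and 33.9 to 88.3 CPM on the right.

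Hmox1, which breaks down haem, had the widest range of the 6 genes in the knockdown table. With PE it lay at 626 and 638 CPM in siKlf2 and at 418 and 337 CPM in siNeg. Without PE it lay at 483 and 434 CPM in siKlf2 and at 149.5 and 145.0 CPM in siNeg. The 4 groups did not overlap, and siNeg without PE was the lowest by a wide margin. Here and below, lack of overlap between groups of 2 or 3 libraries is a description only. Its share over all genes was not counted. Sod2 in siKlf2 with PE also lay apart from siNeg with PE, at a log2 fold change of 0.01 (adjusted p = 0.766 in edgeR). The log2 fold change of siKlf2 over siNeg was 0.74 with PE (SE 0.081, adjusted p = 1.3e-05 in edgeR's quasi-likelihood test with Benjamini-Hochberg adjustment). It was 1.64 without PE, a 3.11-fold higher level (standard error 0.083, adjusted p = 2.91e-08 in edgeR), which ranked at the 99.3 percentile of 18173 tested genes. Scaled by library totals alone, these values were 0.48 with PE and 1.44 without PE, both past the threshold.

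Hmox1 was also higher with added Klf2 in resting cells. It lay at 70.0, 72.5 and 88.3 CPM in Ad-Klf2 without PE, against 43.1, 33.9 and 47.3 CPM in Ad-GFP without PE, with no overlap. The log2 fold change was 0.89 (standard error 0.12, adjusted p = 8.82e-06 in edgeR). With PE the Ad-Klf2 libraries lay at 80.1, 81.4 and 83.03 CPM, close together, and the Ad-GFP libraries at 84.4, 60.5 and 69.8 CPM, spread around them. That log2 fold change was 0.19 with a 95% interval of -0.06 to 0.44 (adjusted p = 0.179 in edgeR). Hmox1 with PE in the Ad-Klf2 comparison passed the threshold without Ad-GFP with PE replicate 1 (log2 fold change 0.34), in voom with quality weights (0.21) and in a fit of the compared groups alone (0.18). Over 21 alternatives its adjusted p lay between 0.0125 and 0.537.

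Nqo1, the quinone reductase, was higher with added Klf2 whether or not PE was given. With PE it lay at 165.5, 165 and 162 CPM in Ad-Klf2 and at 89.8, 87.7 and 82.6 CPM in Ad-GFP. Without PE it lay at 117, 126 and 143 CPM in Ad-Klf2 and at 77.7, 66.8 and 67.2 CPM in Ad-GFP. Every Ad-Klf2 library was above every Ad-GFP library in both comparisons. The log2 fold changes were 0.92 with PE (standard error 0.074, adjusted p = 1.97e-09 in edgeR) and 0.87 without PE (standard error 0.073, adjusted p = 2.09e-08 in edgeR).

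After knockdown Nqo1 moved less. With PE it was lower in siKlf2, at 113 and 128 CPM, against 157 and 137 CPM in siNeg, a log2 fold change of -0.28 (standard error 0.068, adjusted p = 0.0044 in edgeR). This call was lost without siKlf2 with PE replicate 1 (log2 fold change -0.18), and with library totals alone the value was -0.55. Without PE it lay at 120 and 115 CPM in siKlf2 and at 112 and 103 CPM in siNeg, and the log2 fold change of 0.12 (95% interval -0.03 to 0.28, adjusted p = 0.148 in edgeR) turned to -0.07 with library totals alone. It passed with no filter and in a fit of the compared groups alone (0.13 and 0.12). Over 16 alternatives its adjusted p lay between 0.0172 and 0.538.

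Gclc, which limits glutathione synthesis, was higher both after knockdown and with added Klf2. In resting overexpression cells it lay at 100.3, 105 and 108 CPM in Ad-Klf2 and at 35.7, 34.6 and 36.6 CPM in Ad-GFP. With PE it lay at 77.1, 72.2 and 78.4 CPM in Ad-Klf2 and at 43.5, 47.9 and 48.9 CPM in Ad-GFP. None of these groups overlapped, and Ad-Klf2 without PE was the highest of the 4. The log2 fold change of Ad-Klf2 over Ad-GFP was 1.55 without PE, a 2.92-fold higher level (standard error 0.065, adjusted p = 1.39e-12 in edgeR), and 0.70 with PE (standard error 0.065, adjusted p = 1.8e-08 in edgeR).

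In the knockdown table Gclc lay at 98.3 and 102.5 CPM in siKlf2 with PE and at 79.1 and 70.2 CPM in siNeg with PE. Without PE it lay at 72.5 and 69.5 CPM in siKlf2 and at 45.7 and 46.6 CPM in siNeg. The siKlf2 libraries with PE were the highest, and those of siNeg with PE overlapped siKlf2 without PE. The log2 fold changes of siKlf2 over siNeg were 0.43 with PE (standard error 0.05, adjusted p = 2.26e-05 in edgeR) and 0.62 without PE (standard error 0.05, adjusted p = 1.26e-06 in edgeR). The value with PE was 0.16 and past the threshold with library totals alone.

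Cat, the peroxisomal enzyme that degrades hydrogen peroxide, was higher after knockdown and, under PE, lower with added Klf2. It lay at 569 and 565 CPM in siKlf2 without PE, against 391 and 389 CPM in siNeg without PE, a log2 fold change of 0.54 (standard error 0.032, adjusted p = 9.13e-08 in edgeR). With PE it lay at 483 and 483 CPM in siKlf2 and at 392 and 375 CPM in siNeg. The replicates were close and the siKlf2 groups lay above both siNeg groups. The log2 fold change with PE was 0.33 (standard error 0.032, adjusted p = 4.1e-06 in edgeR), and the call was lost with library totals alone (0.07). The value without PE was 0.34 and past the threshold with that scaling.

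In the overexpression table Cat lay at 176, 183 and 171 CPM in Ad-Klf2 with PE and at 213, 205 and 230.3 CPM in Ad-GFP with PE. The groups did not overlap, and the log2 fold change was -0.29 (standard error 0.07, adjusted p = 0.00117 in edgeR). Without PE it lay at 308, 353 and 278 CPM in Ad-Klf2 and at 283, 282 and 275 CPM in Ad-GFP, which overlapped, with the Ad-Klf2 libraries the more spread. That log2 fold change was 0.16 (95% interval 0.02 to 0.31, adjusted p = 0.0796 in edgeR). It was 0.28 and past the threshold without Ad-Klf2 replicate 3. It also passed without Ad-GFP with PE replicate 2 or 3, without Ad-Klf2 with PE replicate 2 and with no filter, at 0.19 to 0.20. Over 20 alternatives its adjusted p lay between 0.00337 and 0.313.

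Sod1, the cytosolic dismutase, was higher in resting siKlf2 cells and lower in PE-treated Ad-Klf2 cells. It lay at 400 and 421 CPM in siKlf2 without PE and at 326 and 302 CPM in siNeg without PE, a log2 fold change of 0.39 (standard error 0.058, adjusted p = 0.000161 in edgeR). This was 0.19 and past the threshold with library totals alone. With PE it lay at 318 and 347 CPM in siKlf2 and at 298 and 329.8 CPM in siNeg, which overlapped. That log2 fold change was 0.08 (95% interval -0.04 to 0.21, adjusted p = 0.246 in edgeR). It turned to -0.18 with library totals alone and was 0.16 without siNeg with PE replicate 2, both past the threshold. Over 16 alternatives its adjusted p lay between 0.00813 and 0.868.

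In Ad-Klf2 with PE the 3 libraries had 179.8, 180.5 and 179.6 CPM of Sod1, against 248, 241 and 240.3 CPM in Ad-GFP with PE. The log2 fold change was -0.43 (standard error 0.058, adjusted p = 2.55e-06 in edgeR), a level 1.35-fold lower. Without PE Sod1 lay at 223, 202 and 245 CPM in Ad-Klf2 and at 243, 243 and 237 CPM in Ad-GFP, with overlap. That log2 fold change was -0.11 (95% interval -0.24 to 0.01, adjusted p = 0.147 in edgeR), and it passed without Ad-Klf2 replicate 3 (-0.15).

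Sod2, the mitochondrial dismutase, moved least. Its highest group mean was 1.12 times the lowest in the knockdown table and 1.24 times in the overexpression table. In the knockdown table it lay at 329.9 and 326 CPM in siKlf2 with PE, 325 and 325 CPM in siNeg with PE, 304 and 320.1 CPM in siKlf2 without PE, and 296 and 292 CPM in siNeg without PE. Levels with PE were above those without it with TMM scaling, but with library totals alone PE lowered Sod2 in siKlf2 (log2 fold change -0.10, past the threshold). The log2 fold change of siKlf2 over siNeg was 0.01 with PE (95% interval -0.06 to 0.09, adjusted p = 0.766 in edgeR) and 0.09 without PE (standard error 0.033, adjusted p = 0.0439 in edgeR). With library totals alone both turned, to -0.25 with PE and -0.11 without PE, both past the threshold. The call without PE was also lost with a replicate block (0.09) and without siKlf2 replicate 2 or either siNeg library (log2 fold changes 0.05, 0.10 and 0.08).

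With added Klf2, Sod2 lay at 303, 294 and 291 CPM in Ad-Klf2 with PE, against 315, 338 and 312 CPM in Ad-GFP with PE. Without PE it lay at 257, 262 and 259 CPM in Ad-Klf2 and at 272, 283 and 292 CPM in Ad-GFP. Ad-Klf2 was the lower group in both comparisons, without overlap. The log2 fold changes were -0.12 with PE (standard error 0.048, adjusted p = 0.0311 in edgeR) and -0.12 without PE (standard error 0.048, adjusted p = 0.0532 in edgeR). The call with PE was lost when any of the 12 libraries was left out, with log2 fold changes of -0.126 to -0.067. It was also lost with RLE size factors and with DESeq2. Over 21 alternatives its adjusted p lay between 0.000556 and 0.276, and 7 of them called it. The value without PE passed with RLE size factors, library totals alone, counts halved and DESeq2, at -0.16 to -0.13. By annotation Sod2 has a pseudogene, Sod2-ps1, and reads shared with such a copy could be counted at either place.

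**Figure D2:**
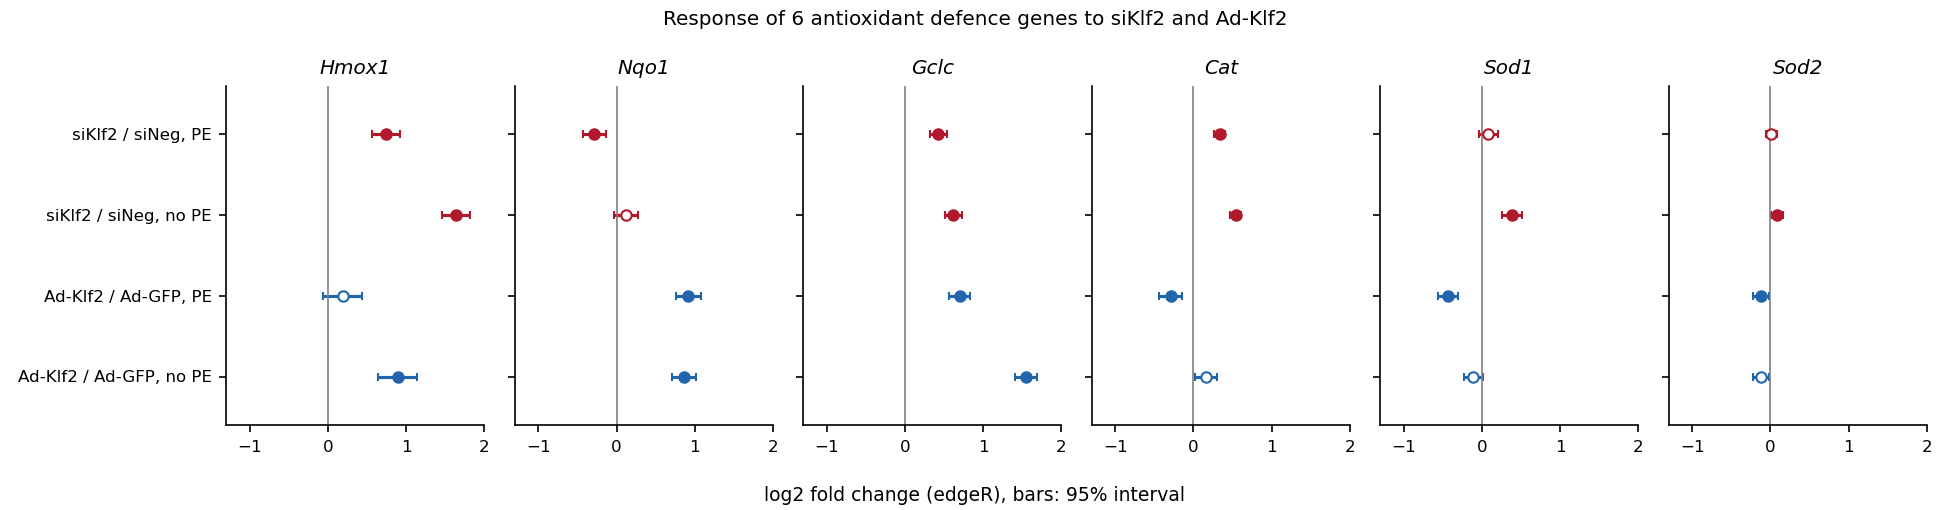
Log2 fold change of each gene for siKlf2 over siNeg and Ad-Klf2 over Ad-GFP, with and without PE, and its 95% interval; filled points passed an edgeR adjusted p of 0.05. Hmox1 and Gclc lie right of 0 in resting cells of both tables, at 1.64 and 0.62 after knockdown and at 0.89 and 1.55 with Ad-Klf2; the open or small Sod2 values of knockdown turn negative with library totals alone.

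The calls of the 6 genes were then set against those of all tested genes. In resting cells siKlf2 raised 5 of the 6 genes (all but Nqo1, with Sod2 turned to lower with library totals alone), where 27.2% of tested genes were called higher, 26.8% lower and 53.9% in either direction. Their median log2 fold change was 0.46, against -0.02 over all tested genes. With PE, siKlf2 raised Hmox1, Gclc and Cat and lowered Nqo1, where 26.1% of genes were called higher, 28.2% lower and 54.3% in either direction, and the members' median was 0.21, against -0.04. Ad-Klf2 raised Hmox1, Nqo1 and Gclc in resting cells, where 20% of genes were called higher, 15.1% lower and 35.1% in either direction. The medians were 0.52 for the 6 genes and 0.00 for all genes. With PE, Ad-Klf2 raised Nqo1 and Gclc and lowered Cat, Sod1 and Sod2. There 65.8% of all genes were called, 33.6% higher and 32.1% lower, so 5 calls among 6 genes lie near the background. The medians were 0.03 and -0.03.

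Hmox1 and Gclc were thus called higher in resting cells under both manipulations. The resting calls with Ad-Klf2 rest on the Ad-GFP libraries without PE, which stood apart. Nqo1 had opposite calls under PE, lower in siKlf2 and higher in Ad-Klf2. Cat under PE had opposite calls as well, higher in siKlf2 and lower in Ad-Klf2, the first of them lost with library totals alone. The values of the knockdown and overexpression tables come from separate fits, and differences between the tables were not tested. In the control cells Hmox1 averaged 147 ± 3.18 CPM in siNeg without PE (SD, n = 2) and 41.4 ± 6.87 CPM in Ad-GFP without PE (SD, n = 3), each scaled within its own table.

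The response to PE itself was compared within each arm. Each uses libraries that also enter the comparisons above, so the calls are not independent of them. In siKlf2 cells PE raised Hmox1 and Gclc and lowered Cat and Sod1, where 48.1% of genes were called, 24.4% higher and 23.7% lower. Hmox1 rose by 0.46 on the log2 scale (standard error 0.081, adjusted p = 0.000561 in edgeR) and Gclc by 0.50 (standard error 0.05, adjusted p = 7.47e-06 in edgeR). Sod1 fell by 0.30 (standard error 0.058, adjusted p = 0.00108 in edgeR) and Cat by 0.23 (standard error 0.032, adjusted p = 8.99e-05 in edgeR). With library totals alone these 4 values were 0.29 for Hmox1, 0.33 for Gclc, -0.47 for Sod1 and -0.40 for Cat, all past the threshold. Nqo1 had a log2 fold change of 0.04 (95% interval -0.11 to 0.19), which was -0.13 with library totals alone. Sod2 had 0.07 (adjusted p = 0.0912 in edgeR), which passed with RLE size factors and with DESeq2, each at 0.09. Without siKlf2 replicate 2 the Sod2 value was 0.11. With library totals alone it turned to -0.10, past the threshold.

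In Ad-Klf2 cells PE lowered Gclc, Cat and Sod1 and raised Nqo1 and Sod2, where 61.3% of genes were called, 31.6% higher and 29.6% lower. Cat, for hydrogen peroxide removal, fell the most, by 0.83 on the log2 scale (standard error 0.07, adjusted p = 5.77e-09 in edgeR). Gclc fell by 0.46 (standard error 0.064, adjusted p = 4.81e-06 in edgeR) from the highest level of that table. Sod1 fell by 0.31 (standard error 0.058, adjusted p = 0.000141 in edgeR), and Nqo1 rose by 0.35 (standard error 0.073, adjusted p = 0.000372 in edgeR). The Sod1 value was -0.51 with library totals alone. Hmox1 had a log2 fold change of 0.08 with a 95% interval of -0.16 to 0.33 (adjusted p = 0.56 in edgeR), and -0.11 with library totals alone. The Nqo1 rise was not called with library totals alone (0.15), nor was that of Sod2, which was -0.007 there, against 0.19.

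In the control arms, PE raised Hmox1, Nqo1, Gclc and Sod2 in siNeg cells, where 24.8% of genes were called higher, 24.3% lower and 49.1% in either direction. In Ad-GFP cells the same 4 genes were called higher, where 18.3% of genes were called higher and 34.6% in either direction, and Cat was called lower, as were 16.3% of genes. Both control arms therefore had calls for the NRF2 targets in the same direction. The log2 fold changes of PE over no PE were 1.36 for Hmox1 (standard error 0.082, adjusted p = 1.26e-07 in edgeR), 0.69 for Gclc and 0.44 for Nqo1 in siNeg. In Ad-GFP they were 0.79 for Hmox1 (standard error 0.12, adjusted p = 4.51e-05 in edgeR), 0.39 for Gclc (0.26 and past the threshold with library totals alone) and 0.30 for Nqo1. For Sod2 they were 0.15 in siNeg and 0.19 in Ad-GFP, and with library totals alone 0.04 and 0.05, no longer past the threshold. The Nqo1 call in Ad-GFP was lost with library totals alone too (0.16). Sod1 had log2 fold changes of -0.002 in siNeg (95% interval -0.13 to 0.13) and 0.01 in Ad-GFP (95% interval -0.11 to 0.13). Cat fell by 0.37 on the log2 scale in Ad-GFP (standard error 0.069, adjusted p = 0.000335 in edgeR), with a log2 fold change of -0.02 in siNeg (adjusted p = 0.551 in edgeR) that was -0.13 and past the threshold with library totals alone.

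**Figure D3:**
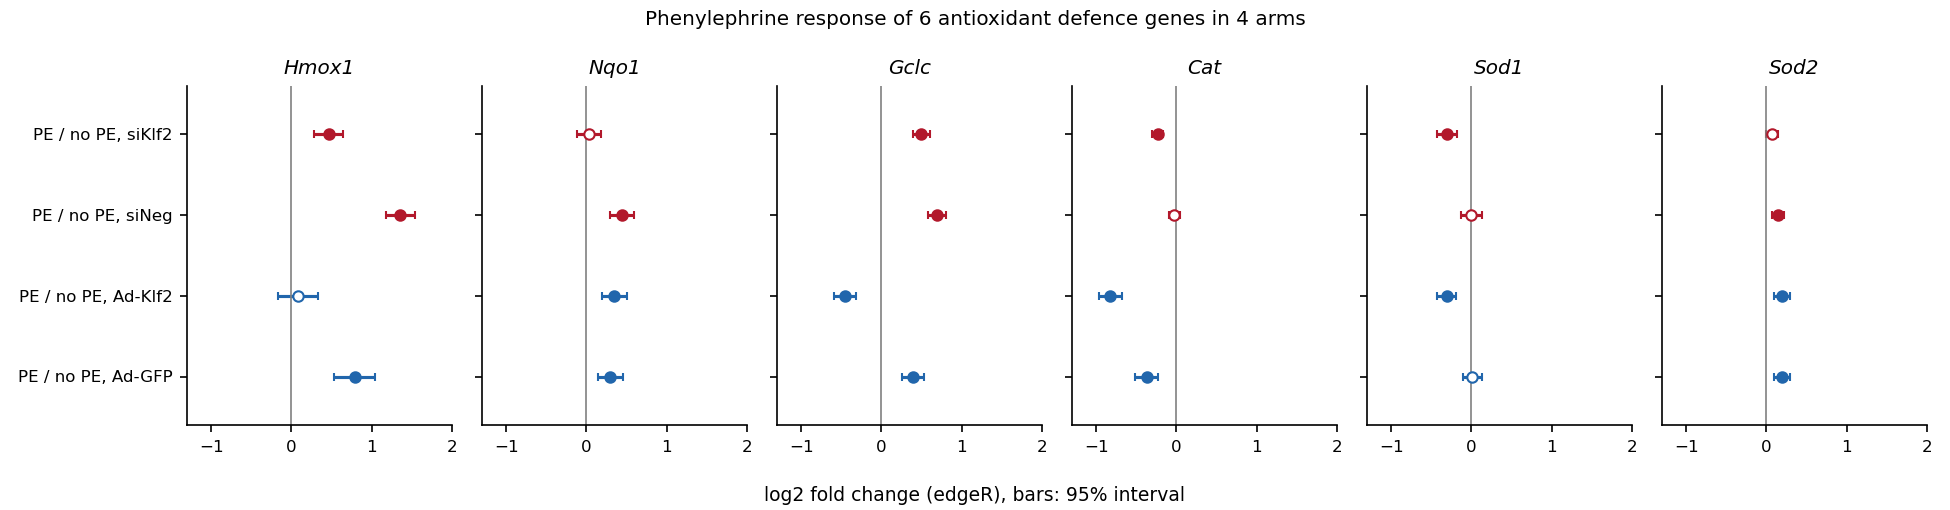
Log2 fold change of PE over no PE for each gene in siKlf2, siNeg, Ad-Klf2 and Ad-GFP cells with its 95% interval; filled points passed an edgeR adjusted p of 0.05. Gclc lies at 0.50, 0.69, -0.46 and 0.39 from top to bottom, and Sod2 stays within 0.07 to 0.19, values that fall to -0.10 to 0.05 with library totals alone.

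Whether the PE response differed between siKlf2 and siNeg, or between Ad-Klf2 and Ad-GFP, was tested as the difference between arms. With library totals alone in place of TMM scaling, such differences moved by -0.07 and -0.06 on the log2 scale in the 2 tables. The PE response of Hmox1 was smaller in siKlf2 than in siNeg (log2 difference -0.90, standard error 0.11, adjusted p = 0.000418 in edgeR), and also smaller in Ad-Klf2 than in Ad-GFP (log2 difference -0.71, standard error 0.17, adjusted p = 0.00184 in edgeR). Both times Hmox1 was already higher without PE in the siKlf2 or Ad-Klf2 cells. Gclc in Ad-Klf2 and Cat and Sod1 in siKlf2 were also called higher without PE (log2 fold changes 1.55, 0.54 and 0.39). Nqo1 in siKlf2 and Cat and Sod1 in Ad-Klf2 were not called without PE. For Gclc the difference was called in Ad-Klf2 minus Ad-GFP (-0.85, standard error 0.091, adjusted p = 2.87e-07 in edgeR), where PE lowered it in Ad-Klf2 and raised it in Ad-GFP. In siKlf2 minus siNeg it was -0.19 (adjusted p = 0.0987 in edgeR), which passed without siNeg with PE replicate 2 (-0.28), with no filter (-0.20) and with library totals alone (-0.26). Over 15 alternatives its adjusted p lay between 0.00305 and 0.292.

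For Cat the difference was -0.21 in siKlf2 minus siNeg (standard error 0.045, adjusted p = 0.0102 in edgeR) and -0.45 in Ad-Klf2 minus Ad-GFP (standard error 0.098, adjusted p = 0.00076 in edgeR). For Sod1 it was -0.30 (standard error 0.082, adjusted p = 0.031 in edgeR) and -0.32 (standard error 0.082, adjusted p = 0.00314 in edgeR) in the same order. Both genes therefore had a lower PE response in siKlf2 and in Ad-Klf2 cells than in their controls. Nqo1 had a difference of -0.41 in siKlf2 minus siNeg (standard error 0.096, adjusted p = 0.0164 in edgeR) and of 0.05 in Ad-Klf2 minus Ad-GFP (95% interval -0.16 to 0.27). Sod2 had differences of -0.07 (95% interval -0.17 to 0.03) and 0.001 (95% interval -0.14 to 0.14).

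Each table thus had 4 of the 6 genes called with a lower PE response, where 7.35% of genes were called lower, 7.08% higher and 14.4% called in either direction in the knockdown table, and 24% lower, 25.1% higher and 49.1% in either direction in the overexpression table. With 2 libraries a group, 3 of the knockdown calls depended on single libraries. That of Cat was lost without siKlf2 replicate 1 or siNeg replicate 2 (log2 differences -0.19 and -0.20). That of Nqo1 was lost without siKlf2 replicate 1, siKlf2 with PE replicate 1 or siNeg replicate 2 (-0.37, -0.32 and -0.35). That of Sod1 was lost without siKlf2 replicate 1 or 2, siKlf2 with PE replicate 1, siNeg replicate 2 or siNeg with PE replicate 2 (-0.33 to -0.23). The Hmox1 difference was called in all 8 leave-one-out fits, at -1.04 to -0.73. Every difference in the overexpression table includes the Ad-GFP libraries that stood apart.

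**Figure D4:**
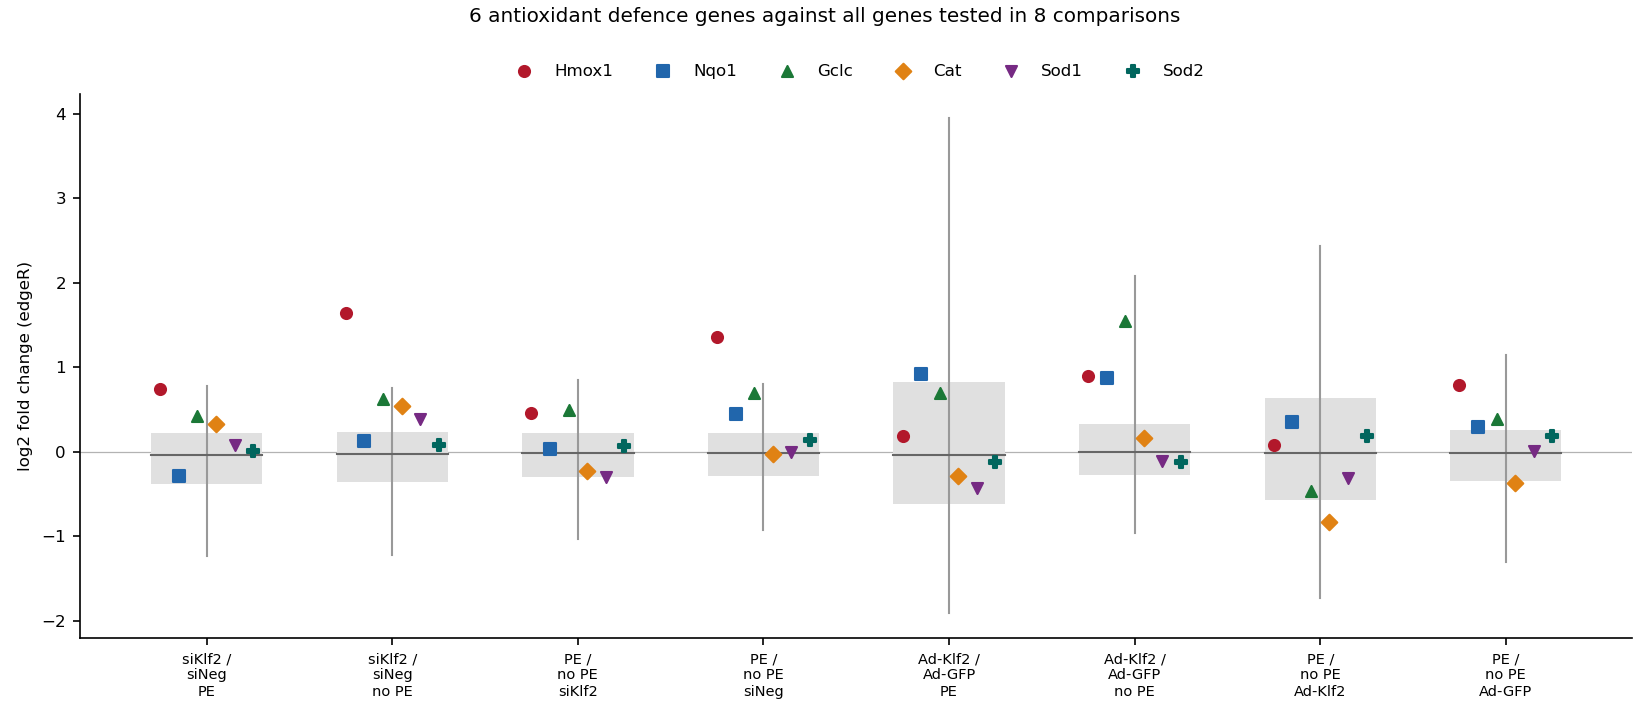
Log2 fold changes of the 6 genes (symbols) in 8 comparisons, against all tested genes of each (grey box, 25 to 75 percentile; grey line, 5 to 95 percentile; bar, median). Hmox1 lies above the 95 percentile of 0.75 in resting siKlf2 cells at 1.64 and above 0.80 in siNeg with PE at 1.36, whereas in Ad-Klf2 with PE all 6 genes lie within the 5 to 95 percentile range of -1.90 to 3.94; Sod2 turns negative after knockdown with library totals alone.

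Each log2 fold change was ranked with its sign among all tested genes, and also by its absolute size. In resting siKlf2 cells the rises of Gclc and Cat ranked at the 92.9 and 90.8 percentiles and that of Sod1 at 85.3. By absolute size these changes ranked lower, at 77.9, 73.4 and 61.4. In Ad-Klf2 without PE, Gclc ranked at the 93 percentile with its sign, Hmox1 at 88 and Nqo1 at 87.8. By absolute size they ranked at 91.3, 82.4 and 81.8. These ranks use the Ad-GFP libraries without PE, which stood apart. With PE the signed ranks were lower, at 72.3 for Gclc and 76.6 for Nqo1, and the ranks by absolute size were 50.2 and 60.2. There the 95 percentile of all genes was 3.94 on the log2 scale. Leaving the Ad-GFP group without PE out of the fit gave the same calls for the 6 genes in Ad-Klf2 against Ad-GFP with PE, with log2 fold changes of 0.85 for Nqo1, 0.632 for Gclc, -0.36 for Cat, -0.50 for Sod1 and -0.19 for Sod2.

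Ratios of counts within a library do not depend on scaling. Sod2 was taken as the denominator after its values were seen, because it moved least with TMM scaling, so the ratios largely restate those values. A ratio shows unequal change of the pair, and not which of them moved. Hmox1 per count of Sod2 was 1.93 ± 0.0419 in siKlf2 with PE and 1.16 ± 0.178 in siNeg with PE, and 1.47 ± 0.165 in siKlf2 and 0.501 ± 0.00659 in siNeg without PE (SD, n = 2 each). Nqo1 per Sod2 was 0.555 ± 0.00719 in Ad-Klf2 with PE and 0.269 ± 0.0135 in Ad-GFP with PE (SD, n = 3 each). Gclc per Sod2 was 0.402 ± 0.0128 in Ad-Klf2 without PE and 0.126 ± 0.00463 in Ad-GFP without PE (SD, n = 3 each). In these 4 comparisons the groups did not overlap, which was not counted over all genes. Cat per Sod2 was 1.47 ± 0.0115 in siKlf2 with PE and 1.18 ± 0.039 in siNeg with PE (SD, n = 2 each), also without overlap. Sod2 itself was lower there with library totals alone, so this ratio does not bear on the Cat call lost with that scaling. Sod1 per Sod2 was 0.608 ± 0.0126 in Ad-Klf2 with PE and 0.756 ± 0.0395 in Ad-GFP with PE (SD, n = 3 each), again without overlap. Other ratios did overlap, among them the following 3. Cat per Sod2 ran from 0.581 to 0.622 in Ad-Klf2 with PE and from 0.606 to 0.737 in Ad-GFP with PE. Hmox1 per Sod2 ran from 0.265 to 0.286 in Ad-Klf2 with PE and from 0.179 to 0.268 in Ad-GFP with PE. Nqo1 per Sod2 ran from 0.361 to 0.394 in siKlf2 without PE and from 0.354 to 0.379 in siNeg without PE.

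**Figure D5:**
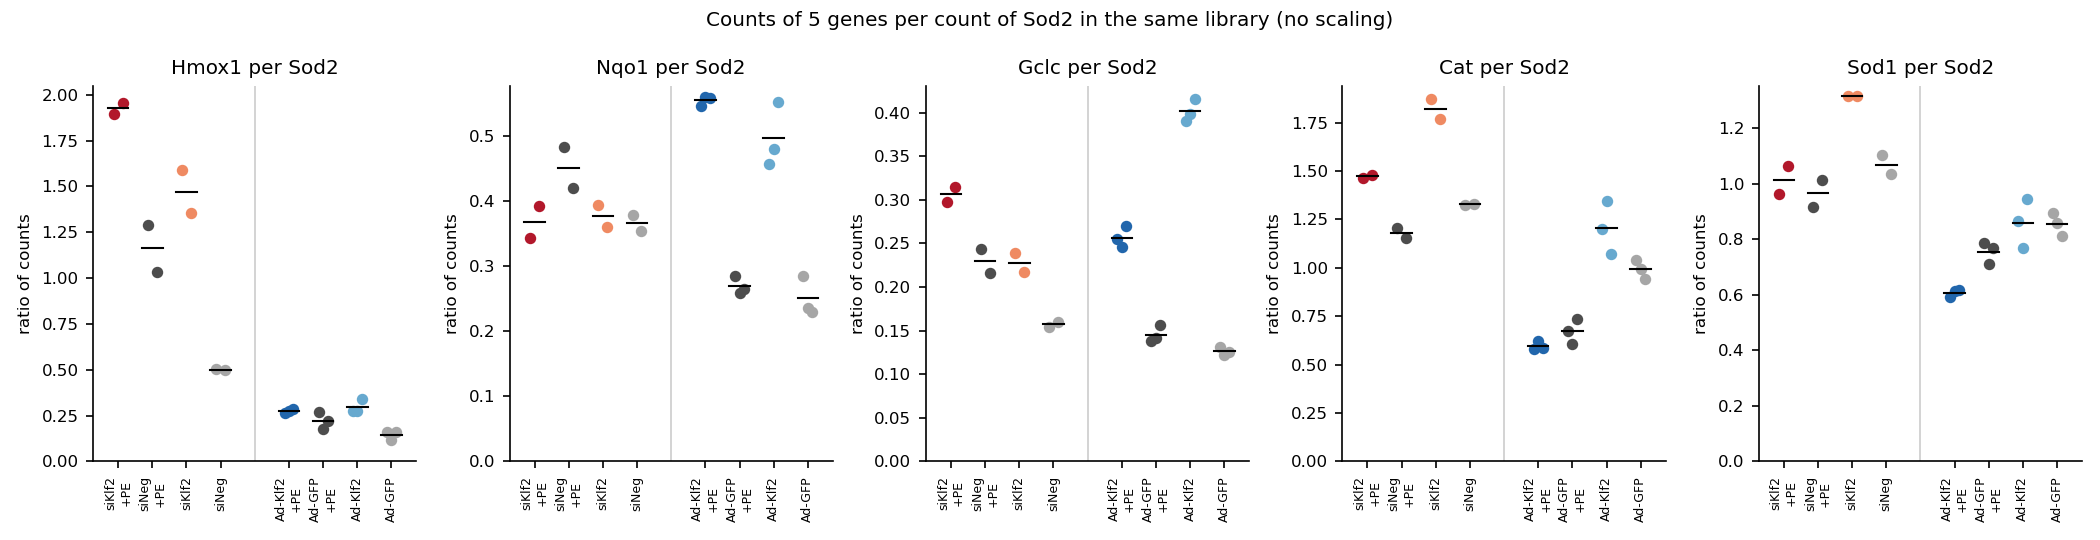
Counts of 5 genes per count of Sod2 in the same library, on linear axes starting at 0, with 1 point per library and a line at the group mean; no library scaling enters. Hmox1 per Sod2 reaches 1.93 in siKlf2 with PE, Nqo1 per Sod2 reaches 0.555 in Ad-Klf2 with PE, and Gclc per Sod2 is highest in Ad-Klf2 without PE at 0.402.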

How the data were processed

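Each library was prepared with 400 ng of RNA, per the labels' protocols. Trim Galore, STAR, featureCounts and the build mRatBN7.2 are named in the submitters' processing notes. Versions, strand setting and treatment of mates are not given in the sources used here. The deposited values are raw counts per Ensembl gene ID. Among counts of 1 to 20, 59.8% to 66.6% were even in the knockdown libraries. The share was 80.5% to 82.2% in Ad-GFP without PE and 72.1% to 77.9% in the other overexpression libraries. A count may therefore not be an independent fragment. Reads of a gene and of one that overlaps it cannot be told apart without strand.

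Each table was analysed on its own with edgeR 4.0.16 in R 4.3.3: filterByExpr (minimum count 10, minimum total 15), TMM factors and a quasi-likelihood fit of all 4 groups. This tested 18173 genes for knockdown and 16153 for overexpression. Tests were two-sided, with Benjamini-Hochberg adjustment over all tested genes of a comparison, and called at an adjusted p under 0.05. The procedure was tested on simulated data. Alternatives were RLE size factors, library totals, no filter, DESeq2 1.42.0, limma 3.58.1 voom with quality weights, fits of the compared groups, a replicate block, a minimum fold (1.5), and each library left out in turn. Counts halved and a fit without the Ad-GFP group without PE were added after the data were seen. Figures used Python 3.11.15 and matplotlib 3.10.9.

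The 6 genes, the lists and the tests were chosen with earlier results of these data known, and the 6 genes were described whatever their values. Lists of 85 pathway genes and 27 cell type markers, and a search for genes of like pattern, were not used, since 0 of 30560 IDs matched a symbol in the reference. The labels do not say whether replicates were separate preparations, and the p-values cover only how much these libraries vary, possibly for technical reasons.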

Additional observations from a re-analysis of the deposited data

Results flagged for a closer look

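The response to PE differed between siKlf2 or Ad-Klf2 cells and their controls, by the test of the difference itself, for 8 of 12 gene and table pairs. In siKlf2 minus siNeg the log2 differences were -0.90 for Hmox1, -0.41 for Nqo1, -0.21 for Cat and -0.30 for Sod1 (edgeR adjusted p = 0.000418, 0.0164, 0.0102 and 0.031). In Ad-Klf2 minus Ad-GFP they were -0.71 for Hmox1, -0.85 for Gclc, -0.45 for Cat and -0.32 for Sod1 (edgeR adjusted p = 0.00184, 2.87e-07, 0.00076 and 0.00314). All 8 were negative. Of all genes, 14.4% were called in either direction and 7.35% lower in the knockdown table. In overexpression, 49.1% of all genes were called in either direction and 24% lower. The 4 of 6 genes called there lie near the share in either direction only. All 4 were lower, and whether that exceeds the 24% called lower was not tested. The knockdown calls of Nqo1, Cat and Sod1 were each lost when certain single libraries were left out, and 1 to 4 of the 6 genes were called in those fits. For Hmox1 the level without PE was higher in siKlf2 and in Ad-Klf2 than in their controls. Gclc in Ad-Klf2 and Cat and Sod1 in siKlf2 were also called higher without PE. Nqo1 in siKlf2 and Cat and Sod1 in Ad-Klf2 were not called without PE. The Ad-GFP libraries without PE, which stood apart from the others, enter each of the overexpression values, and their part in them was not tested.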

How the results depend on the processing

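Shares of all genes called were counted for the main analysis only. The numbers of genes called in this section therefore have no background beside them. With library totals alone, 3 genes rather than 5 were called for PE in Ad-GFP and 3 rather than 5 for PE in Ad-Klf2. The same setting turned the sign for Sod2 in siKlf2 against siNeg (-0.25 with PE, -0.11 without), for PE on Sod2 in siKlf2 (-0.10) and Ad-Klf2 (-0.007), and for the Sod2 difference in Ad-Klf2 minus Ad-GFP (-0.059). It also turned Sod1 in siKlf2 with PE (-0.18) and for PE in Ad-GFP (-0.13), Nqo1 in siKlf2 without PE (-0.072), for PE in siKlf2 (-0.13) and in the difference of Ad-Klf2 minus Ad-GFP (-0.007), and Hmox1 for PE in Ad-Klf2 (-0.11). The Sod1 response to PE in siNeg, -0.002 in the main analysis, was 0.013 with DESeq2 and with RLE size factors, 0.007 with the compared groups alone and 0.001 with no filter. In Ad-GFP it was -0.003 with no filter. The Sod2 difference in Ad-Klf2 minus Ad-GFP was -0.009 with counts halved and -0.04 with no filter.

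Against a minimum fold of 1.5, the genes called were Hmox1 in siKlf2 without PE (1) and none with PE (0, against 1 at an unadjusted p under 0.05 in edgeR), and 1 for PE in siNeg. This setting called 0 for PE in siKlf2 (0 unadjusted), 0 for PE in Ad-GFP (1 unadjusted), 1 for PE in Ad-Klf2, 2 in Ad-Klf2 with PE and 3 in Ad-Klf2 without PE. It called 0 differences of the PE response in knockdown (1 unadjusted) and 1 in overexpression. No other tool was run with a minimum fold.

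Leaving out 1 library at a time gave 4 to 5 genes called for siKlf2 against siNeg without PE and 3 to 5 with PE, 4 to 4 for PE in siNeg, 4 to 5 for PE in siKlf2 and 1 to 4 for the difference. In overexpression it gave 3 to 5 without PE, 4 to 5 with PE, 5 to 5 for PE in Ad-GFP, 5 to 5 for PE in Ad-Klf2 and 4 to 4 for the difference. The values whose sign turned ranged over -0.056 to 0.009 for PE on Cat in siNeg, -0.075 to 0.072 for PE on Sod1 in siNeg, -0.017 to 0.014 for PE on Sod1 in Ad-GFP and -0.032 to 0.133 for PE on Nqo1 in siKlf2. For the difference in Ad-Klf2 minus Ad-GFP they were -0.027 to 0.116 for Nqo1 and -0.037 to 0.022 for Sod2. A knockdown group left with 1 library was taken to vary like the others.

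Deviations from group means correlated at -0.0432 to 0.0403 between equal replicate numbers in knockdown and at -0.0203 to 0.0446 in overexpression. Between unequal numbers they correlated at -0.0517 to 0.0316 in overexpression. With 2 libraries a group, deviations mirror each other, so unequal numbers give no separate comparison in knockdown. No broad deviation shared by equal numbers was seen, but whether replicate numbers mark pairs is not settled by these values. A replicate block gave 4 rather than 5 calls in siKlf2 without PE and kept the count in the other 9 comparisons. The cause of these shifts was not tested. KLF2 peaks near the genes, planned with 3 distances, were not run, since no gene positions on the build of the peaks were used here.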
